A study of Homo sapiens with 8 samples.

Results

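The mammary lineage transcription factors described here are 10 genes that set or keep the identity of breast epithelial cells: TP63, RUNX1, SOX9, KLF5, ELF3, EHF, TFAP2A, TFAP2C, GATA3 and FOXA1. They were chosen by gene symbol, and all 10 were among the 13771 genes of the expression table. RNA was sequenced from a pair of human breast epithelial lines, MCF10A and DCIS.COM, stably transduced with a pCDH lentiviral vector that was empty or carried HOTAIR, and selected with puromycin. MCF10A is an immortalised, non-tumorigenic line, and DCIS.COM, which comes from the MCF10 series, serves as a model of ductal carcinoma in situ. HOTAIR is a long noncoding RNA transcribed from the HOXC cluster. The 4 groups, MCF10A pCDH-empty, MCF10A pCDH-HOTAIR, DCIS.COM pCDH-empty and DCIS.COM pCDH-HOTAIR, had 2 libraries each, and all 8 carried a vector. MCF10A was grown with horse serum, epidermal growth factor, hydrocortisone, insulin and cholera toxin, while DCIS.COM was grown with horse serum alone, so that the line and its medium cannot be told apart in what follows. Nothing in the labels says that the 2 libraries of a group came from separate cultures, so the p-values measure only the spread between libraries, which may be technical.

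The mammary epithelium has an outer basal layer and an inner luminal layer, and each is kept by its own set of transcription factors. TP63 encodes p63, the factor of the basal layer, which drives basal keratins and the anchorage of cells to the basement membrane. GATA3 and FOXA1 act with the estrogen receptor in mature luminal cells, while ELF3 and EHF are epithelial factors of the ETS family found in luminal progenitors. SOX9 and KLF5 mark stem-like and progenitor cells, and RUNX1 works with its partner CBFB in both layers. TFAP2A and TFAP2C encode the paralogous AP-2 alpha and AP-2 gamma proteins, of which AP-2 gamma is the one most tied to luminal breast cancer cells.

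The libraries held 19306864 to 34884841 reads in the genes of the table, as recovered from the deposited values. In MCF10A, HOTAIR was read 40 and 45 times with the empty vector against 4614 and 4827 times with pCDH-HOTAIR, and in DCIS.COM 119 and 140 against 6385 and 7166 times. The labels therefore match the gene they name, with differences of 7.28 and 5.41 on the log2 scale. The breast epithelial markers CDH1, EPCAM, KRT8, KRT18, KRT5 and KRT14 were all in the table, which has the same genes for both lines. Their lowest counts in the pCDH-empty libraries were 1856 reads in MCF10A, for EPCAM, and 1106 in DCIS.COM, for KRT14. Of the markers of other cells, 4 of 11 fibroblast genes, 2 of 11 leukocyte genes and 1 of 8 endothelial genes were in the table. The defining markers PTPRC, CDH5, VWF, PDGFRA and DCN were not listed. The 4 fibroblast genes, POSTN, FAP, COL1A1 and COL1A2, summed to 101 to 145 CPM (reads scaled to library size) in MCF10A and to 1.63 to 2.95 CPM in DCIS.COM, and their part in the differences between the lines was not tested. The leukocyte genes CD14 and CD68 summed to 41.4 to 47.1 CPM in MCF10A and 5.63 to 6.55 CPM in DCIS.COM, and the endothelial gene PECAM1 was at 1.70 to 2.69 CPM and 10.1 to 13.3 CPM; their part was likewise not tested. The library DCIS.COM pCDH-empty 1 stood apart, with 18.9% of its reads in the signal recognition particle RNA genes RN7SL1 and RN7SL2 against 11.1% to 14.95% in the other 7, so the values of the 10 factors that it moves most are given with and without it. Leaving it out moved the empty vector difference between the lines by 0.154 on the log2 scale for TP63, 0.141 for EHF and 0.120 for KLF5, and by at most 0.0864 for the other 7 factors, with no change of call. Fewer cells of a kind and less RNA per cell cannot be told apart in these bulk libraries.

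Promoter windows, from 250 bases before to 50 bases after an annotated start, were taken from RefSeq (GRCh38.p14) for 8 of the 10 factors, 16 windows in all; SOX9 and TFAP2C had none. They were searched on both strands for short core motifs of the factors' own families and for a TATA box. A match is a description of the letters, not a bound site. The FOXA1 window (chr14:37595200-37595499, minus strand) is shown because it held the SOX core ACAAAG 3 times, and SOX9 differed most between the lines. At least 1 match was found in 16.1% of all 35116 windows, and the share with 3 matches was not counted. The same core was also found in both EHF windows and in a GATA3 window. A link between SOX9 and FOXA1 was not tested. The ELF3 window (chr1:202010337-202010636, plus strand) is shown for a TATA box (TATAAA) that began 34 bases before the start, a motif present in 11.5% of all windows. The RUNX1 window (chr21:34888650-34888949, minus strand) is shown for its 2 matches to the AP-2 core GCCNNNGGC, which was present in 23.2% of all windows and in 3 of the 6 GATA3 windows. Capitals mark the named motif on either strand, and each sequence runs 5′ to 3′ in the direction of transcription.
FOXA1: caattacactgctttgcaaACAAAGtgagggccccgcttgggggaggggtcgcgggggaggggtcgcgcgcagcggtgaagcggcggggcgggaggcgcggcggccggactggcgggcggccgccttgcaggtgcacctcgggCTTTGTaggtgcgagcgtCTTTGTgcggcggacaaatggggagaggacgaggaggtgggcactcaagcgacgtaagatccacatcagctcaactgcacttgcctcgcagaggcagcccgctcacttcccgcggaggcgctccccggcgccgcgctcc
ELF3: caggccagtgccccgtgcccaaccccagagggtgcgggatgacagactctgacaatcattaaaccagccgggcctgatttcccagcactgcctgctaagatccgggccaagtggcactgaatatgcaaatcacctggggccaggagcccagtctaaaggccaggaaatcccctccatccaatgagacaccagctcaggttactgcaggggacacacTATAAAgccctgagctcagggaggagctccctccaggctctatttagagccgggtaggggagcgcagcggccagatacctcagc
RUNX1: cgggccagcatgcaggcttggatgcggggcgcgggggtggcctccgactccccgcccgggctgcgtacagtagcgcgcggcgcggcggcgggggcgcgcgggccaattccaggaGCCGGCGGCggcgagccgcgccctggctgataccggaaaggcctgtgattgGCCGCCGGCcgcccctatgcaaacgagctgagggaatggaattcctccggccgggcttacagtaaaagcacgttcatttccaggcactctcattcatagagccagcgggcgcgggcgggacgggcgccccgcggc

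The order of the factors was read from CPM per kilobase of the canonical transcript, since longer genes collect more reads. KLF5 led in MCF10A at a median of 74.0 CPM per kb over 4 libraries, followed by EHF at 62.7 and ELF3 at 33.7. A lower tier followed, with TFAP2A at 7.0, TFAP2C at 6.03, RUNX1 at 4.77, TP63 at 3.08, SOX9 at 2.85, FOXA1 at 2.13 and GATA3 at 1.91 CPM per kb. The ranges of TFAP2A and TFAP2C overlapped, as did those of TP63 and SOX9, and the other neighbours in this order did not overlap. In DCIS.COM the leading factors were ELF3 at 64.1, EHF at 63.7 and SOX9 at 59.6 CPM per kb, and each overlapped the next. KLF5 came next at 28.8 and then TFAP2C at 18.6, each clear of its neighbours. RUNX1 at 7.32, FOXA1 at 6.29, TP63 at 5.31 and TFAP2A at 4.26 CPM per kb overlapped from one to the next, and GATA3 was lowest at 3.34. The canonical length is a choice. Per kilobase of all annotated exons SOX9 led in DCIS.COM at 59.6 and ELF3 fell to 27.7, because the annotated exons of ELF3 add up to 7186 bases against 3104 in its canonical transcript. The order and overlaps of the lower factors changed too. The lowest was then FOXA1 in MCF10A, at 1.70 and overlapping GATA3, and TFAP2A in DCIS.COM, at 1.63, where RUNX1 fell to 2.81.

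**Figure D1:**
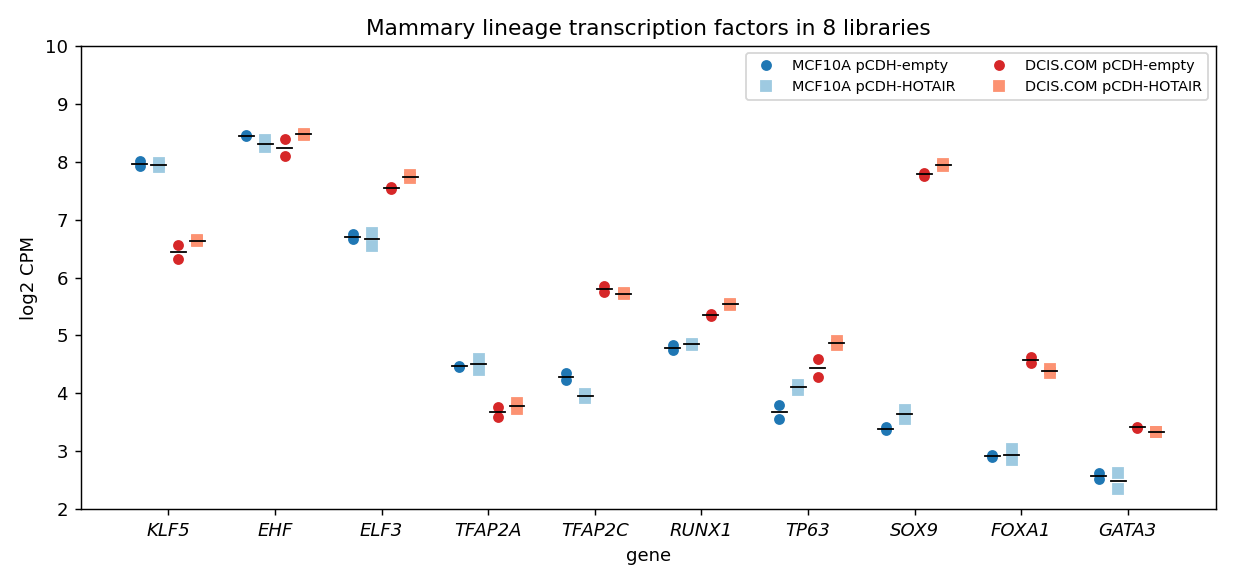
Each point is the log2 CPM of 1 library, with blue for MCF10A and red for DCIS.COM, circles for pCDH-empty and squares for pCDH-HOTAIR; short bars are means of 2 libraries. SOX9 rises from between 3.37 and 3.71 in MCF10A to between 7.76 and 7.96 in DCIS.COM, KLF5 and TFAP2A are lower in DCIS.COM, and the EHF libraries of the lines overlap. Genes are ordered by CPM per kb in MCF10A, so heights on this axis are not comparable between genes.

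The cell lines were compared within the pCDH-empty libraries and again, in separate libraries, within the pCDH-HOTAIR libraries. A gene was called when limma gave an adjusted p below 0.05 and a fold change of at least 1.5. Of the 10 factors, 8 were called in the empty vector libraries, 6 higher and 2 lower in DCIS.COM, against 46.3% of all genes. In the pCDH-HOTAIR libraries 9 were called, 7 higher and 2 lower, against 43.7% of all genes. Their median log2 fold change was 0.79 and 0.81 in the 2 comparisons, while the median of all genes was within 0.0035 of 0. The same genes were called in the same direction in both, with RUNX1 added in the second. With the empty vector 7 factors were higher and 3 lower in DCIS.COM without overlap of the libraries, where 81.6% of all genes did not overlap. With HOTAIR 8 were higher and 2 lower without overlap, against 89.2% of all genes. A lack of overlap between the lines, as given below for single factors, is thus common to most genes.

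SOX9 had the largest difference of the 10. This gene, at chromosome 17 from 70117161 to 70122557 on the plus strand of hg19, encodes an HMG-box factor of mammary stem and luminal progenitor cells. It was at 3.37 and 3.42 log2 CPM in the MCF10A pCDH-empty libraries, at 3.57 and 3.71 with pCDH-HOTAIR, and at 7.76, 7.81, 7.96 and 7.93 in the 4 DCIS.COM libraries. No DCIS.COM library came near an MCF10A one. The difference was 4.39 ± 0.07 (log2, SE), or 21.0-fold, with the empty vector (limma, adjusted p = 6.02e-09), and 4.31 ± 0.07, or 19.8-fold, with HOTAIR (adjusted p = 6.68e-09). The antisense gene SOX9-AS1 overlaps SOX9 on the other strand and had 1 to 5 reads in the MCF10A libraries and 33 to 58 in DCIS.COM, against at least 228 for SOX9. Whether strand was used in counting is not given in the sources used here, so reads of this pair may not be fully separated.

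FOXA1, the pioneer factor that opens chromatin for the estrogen receptor, lies on the minus strand of chromosome 14 from 38058757 to 38065264 (hg19). Its libraries were at 2.94 and 2.89 log2 CPM in MCF10A pCDH-empty, 2.85 and 3.03 in MCF10A pCDH-HOTAIR, 4.52 and 4.63 in DCIS.COM pCDH-empty, and 4.35 and 4.41 in DCIS.COM pCDH-HOTAIR. All 4 DCIS.COM libraries exceeded all 4 MCF10A libraries, by 1.66 ± 0.10 (log2, SE) with the empty vector and 1.44 ± 0.10 with HOTAIR (limma, adjusted p = 2.43e-06 and 5.56e-06). GATA3, the zinc finger factor required for luminal differentiation, is on chromosome 10 from 8087341 to 8117161, plus strand. It was the least abundant of the 10 per kilobase of canonical transcript in each line, at 101 to 190 reads in MCF10A and 285 to 357 in DCIS.COM. GATA3 read 2.62 and 2.52 log2 CPM in MCF10A pCDH-empty against 3.41 and 3.42 in DCIS.COM pCDH-empty, and 2.62 and 2.36 against 3.34 and 3.33 in the pCDH-HOTAIR libraries. The lines did not overlap, and the differences were 0.84 ± 0.12 and 0.85 ± 0.12 (adjusted p = 0.000390 in both). ESR1, which encodes the estrogen receptor these factors act with, was at -0.45 ± 0.19 on the log2 scale in DCIS.COM pCDH-empty over MCF10A pCDH-empty and was not called (adjusted p = 0.0700), and it was at 0.11 ± 0.19 in the pCDH-HOTAIR libraries (adjusted p = 0.632).

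The ETS factors ELF3 and EHF parted. ELF3 (chromosome 1, 201977073 to 201986311, plus strand) was at 6.76 and 6.66 log2 CPM in MCF10A pCDH-empty, 6.77 and 6.55 in MCF10A pCDH-HOTAIR, 7.53 and 7.56 in DCIS.COM pCDH-empty, and 7.77 and 7.71 in DCIS.COM pCDH-HOTAIR. It was higher in DCIS.COM by 0.84 ± 0.08 and 1.08 ± 0.08 (limma, adjusted p = 4.28e-05 and 9.48e-06), with no overlap between lines. EHF (chromosome 11, 34642640 to 34684835, plus strand), which like ELF3 supports epithelial differentiation, read 8.46 and 8.44 in MCF10A pCDH-empty, 8.37 and 8.25 in MCF10A pCDH-HOTAIR, 8.10 and 8.39 in DCIS.COM pCDH-empty, and 8.48 and 8.46 in DCIS.COM pCDH-HOTAIR. It was called in neither comparison of the lines. Its differences were -0.20 (95% interval -0.42 to 0.02) with the empty vector and 0.16 (-0.06 to 0.39) with HOTAIR, so a difference of 1.5-fold in either direction lay outside both intervals. The empty vector difference was -0.06 without DCIS.COM pCDH-empty 1 (adjusted p = 0.329) and -0.34 without DCIS.COM pCDH-empty 2 (adjusted p = 0.000383), under 1.5-fold in both. The ratio of EHF to ELF3 in CPM per kb of canonical transcript was 1.75 to 1.97 in the MCF10A libraries and 0.853 to 1.02 in the DCIS.COM libraries. Per kb of all annotated exons it was 3.30 to 3.72 in MCF10A and 1.61 to 1.93 in DCIS.COM. The ratio was thus lower in every DCIS.COM library on either length, while which of the pair was the more abundant in DCIS.COM depended on the length used.

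The AP-2 paralogs moved apart. TFAP2C (chromosome 20, 55204362 to 55214339, plus strand) read 4.35 and 4.23 log2 CPM in MCF10A pCDH-empty, 4.0 and 3.93 in MCF10A pCDH-HOTAIR, 5.75 and 5.85 in DCIS.COM pCDH-empty, and 5.71 and 5.73 in DCIS.COM pCDH-HOTAIR. TFAP2A (chromosome 6, 10393419 to 10419892, minus strand) read 4.48, 4.45, 4.60 and 4.41 in the 4 MCF10A libraries and 3.59, 3.77, 3.84 and 3.74 in the 4 DCIS.COM libraries. TFAP2C was higher in DCIS.COM by 1.51 ± 0.08 and 1.76 ± 0.08 (limma, adjusted p = 1.07e-06 and 4.59e-07), while TFAP2A was lower, at -0.78 ± 0.10 and -0.72 ± 0.10 (adjusted p = 0.000230 and 0.000409). In CPM per kb of canonical transcript the ratio of TFAP2C to TFAP2A was 0.939 and 1.01 in MCF10A pCDH-empty, 0.724 and 0.785 in MCF10A pCDH-HOTAIR, 4.66 and 4.91 in DCIS.COM pCDH-empty, and 4.04 and 4.38 in DCIS.COM pCDH-HOTAIR. Per kb of all annotated exons it was 1.81 to 2.51 in MCF10A and 10.1 to 12.3 in DCIS.COM. The ratio was thus higher in every DCIS.COM library on either length, while the order of the pair in MCF10A depended on the length used. How reads that fit both paralogs were counted is not given in the sources used here.

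**Figure D2:**
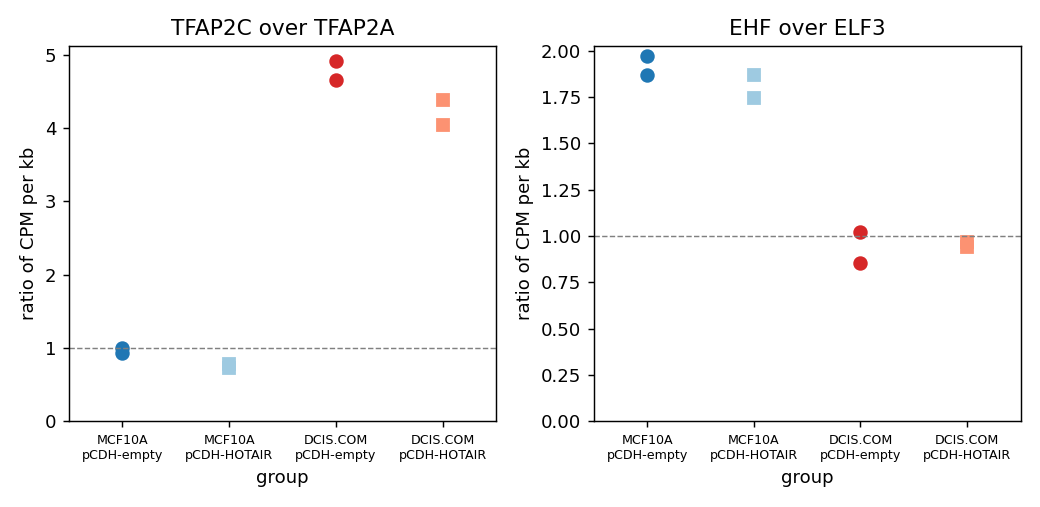
Ratios of the paralog pairs in CPM per kb of canonical transcript, 1 point per library, for the 4 groups; the dashed line marks equal levels. TFAP2C over TFAP2A is at 0.724 to 1.01 in MCF10A and 4.04 to 4.91 in DCIS.COM, and EHF over ELF3 is at 1.75 to 1.97 and 0.853 to 1.02.

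KLF5, a zinc finger factor of proliferating basal and progenitor cells, was the other member lower in DCIS.COM. The gene lies at chromosome 13 from 73629114 to 73651679, plus strand. It read 8.01 and 7.93 log2 CPM in MCF10A pCDH-empty, 7.98 and 7.91 in MCF10A pCDH-HOTAIR, 6.33 and 6.57 in DCIS.COM pCDH-empty, and 6.65 and 6.62 in DCIS.COM pCDH-HOTAIR. The lines were well separated, at -1.52 ± 0.09 with the empty vector and -1.31 ± 0.09 with HOTAIR, a 2.87-fold and a 2.47-fold lower level (limma, adjusted p = 1.55e-06 and 3.76e-06). Without DCIS.COM pCDH-empty 1 the empty vector difference was -1.40. WWP1, a ubiquitin ligase known to mark KLF5 for degradation, was also lower in DCIS.COM pCDH-empty, at -1.18 ± 0.09 (adjusted p = 7.84e-06).

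TP63 (chromosome 3, 189349178 to 189615065, plus strand) was higher in DCIS.COM. It read 3.80 and 3.57 log2 CPM in MCF10A pCDH-empty, 4.14 and 4.06 in MCF10A pCDH-HOTAIR, 4.28 and 4.59 in DCIS.COM pCDH-empty, and 4.84 and 4.91 in DCIS.COM pCDH-HOTAIR. At a given vector the lines did not overlap, and DCIS.COM exceeded MCF10A by 0.75 ± 0.13 and 0.77 ± 0.13 (limma, adjusted p = 0.000955 and 0.000852), or 1.68-fold and 1.71-fold. Without DCIS.COM pCDH-empty 1 the empty vector difference was 0.90. These values sum all transcripts of the gene, so the isoforms with and without the transactivation domain are not separated. RUNX1, the runt-domain factor (chromosome 21, 36160098 to 37376965, minus strand), read 4.74 and 4.84 in MCF10A pCDH-empty against 5.34 and 5.37 in DCIS.COM pCDH-empty, and 4.86 and 4.83 against 5.54 and 5.53 in the pCDH-HOTAIR libraries. The lines differed beyond the spread of the libraries at both vectors (adjusted p = 0.000161 and 4.93e-05). The difference of 0.56 ± 0.07, or 1.48-fold, in the empty vector libraries fell just short of the 1.5-fold threshold, whereas 0.69 ± 0.07, or 1.62-fold, in the pCDH-HOTAIR libraries passed it. It was called in the empty vector libraries under median centring (0.61), under quantile normalization (0.62) and without MCF10A pCDH-empty 2 (0.61). CBFB, which encodes the partner of RUNX1, was called at neither vector. It was at 0.11 ± 0.16 with the empty vector and 0.48 ± 0.16, or 1.39-fold, with HOTAIR (adjusted p = 0.562 and 0.0295, limma). Its DCIS.COM pCDH-empty libraries lay apart, with an SD of 0.41 log2 CPM.

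**Figure D3:**
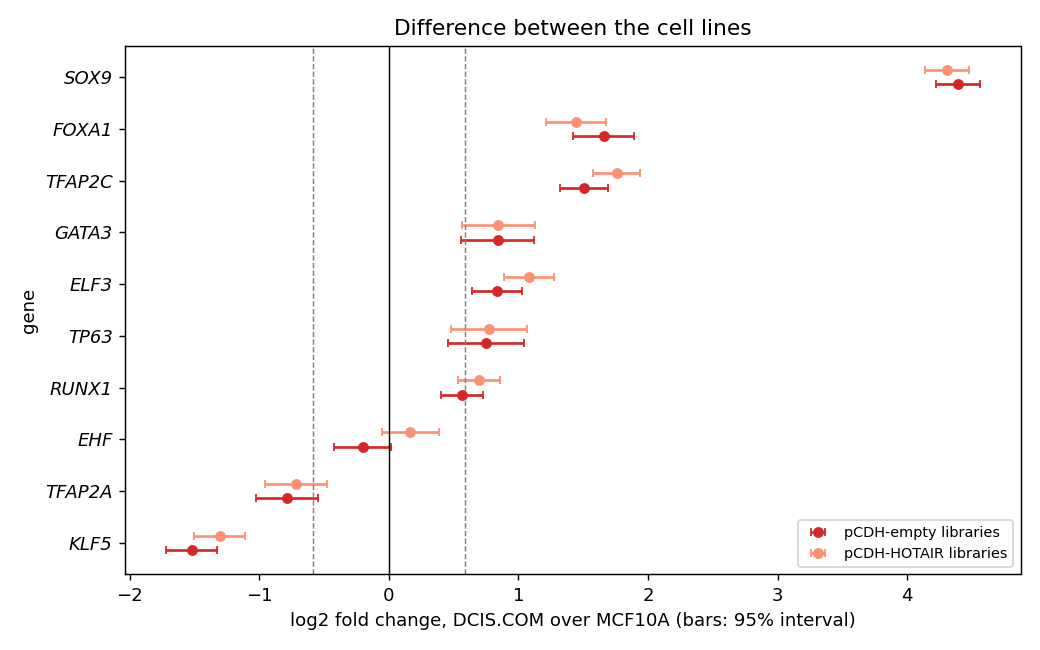
Points are log2 fold changes of DCIS.COM over MCF10A with 95% intervals from limma, dark red for the pCDH-empty and light red for the pCDH-HOTAIR libraries; dashed lines mark a 1.5-fold change. SOX9 stands at 4.39 and 4.31, KLF5 and TFAP2A lie below 0 in both, and EHF spans 0 in both.

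Other members of the same families were called in both directions. Of 32 relatives listed, 18 were in the table. In the pCDH-empty libraries 3 were called higher and 10 lower in DCIS.COM, against 22.5% and 23.8% of all genes. The median log2 fold change of the 18 was -0.69. In the pCDH-HOTAIR libraries 3 were called higher and 9 lower, against 22.0% and 21.7% of all genes. ELF5, TP73, RUNX3, FOXA2 and FOXA3 were among the 14 not listed. GATA2 fell from 395 and 596 reads in MCF10A pCDH-empty to 6 and 11 in DCIS.COM pCDH-empty (-5.56 ± 0.24), opposite to GATA3. It was below 0.5 CPM in every DCIS.COM library and so was in the table through MCF10A alone. Its difference is therefore given as a description. KLF9, a relative of KLF5, fell by 3.89 on the log2 scale, from 862 and 970 reads to 53 and 65 (limma, adjusted p = 1.79e-07). SOX15, by contrast with SOX9, was lower, at -3.06 ± 0.12 (adjusted p = 2.03e-07). SPDEF, an ETS factor of luminal and secretory cells, had 1 and 2 reads in MCF10A pCDH-empty and 93 to 132 in DCIS.COM pCDH-empty.

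Of 18 cofactors and regulators of the 10 factors, 16 were in the table. In DCIS.COM pCDH-empty 5 were called higher and 4 lower, against 22.5% and 23.8% of all genes. KCTD15, which represses AP-2 activity, showed the largest difference, from 98 and 110 reads in MCF10A pCDH-empty to 979 and 1181 in DCIS.COM pCDH-empty (3.37 ± 0.12, adjusted p = 1.40e-07, limma). The AP-2 coactivators CITED1 and CITED4 were higher by 2.87 ± 0.35 and 1.26 ± 0.11 (adjusted p = 2.17e-05 for CITED4), while CITED2 was at -0.31 ± 0.12 and was not called. CITED1 had only 7 and 8 reads in MCF10A pCDH-empty. It was below 0.5 CPM in every MCF10A library and so was in the table through DCIS.COM alone. PPP1R13B, which encodes a p53-family partner, and the corepressor TLE1 were higher by 1.20 and 0.68. LMO2, a partner of GATA factors in blood, was lower, at -1.49 ± 0.23, with 10 to 40 reads. The ubiquitin ligases ITCH and MDM2 were lower, at -0.83 and -0.90. ZFPM1, KCTD1, LDB1, TLE3 and PPP1R13L were not called in that comparison, at 0.17, -0.15, 0.02, -0.47 and 0.29. In the pCDH-HOTAIR libraries TLE3 was called lower, at -0.96 ± 0.10 (adjusted p = 7.74e-05, limma), and TLE1 was not called, at 0.41 ± 0.09.

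Among 46 other transcription factors of the mammary gland, 40 were in the table, and their median was -0.25. Of these, 14 were called higher and 15 lower in DCIS.COM pCDH-empty, against 22.5% and 23.8% of all genes. ZEB2, a repressor of epithelial genes, had 474 and 521 reads in MCF10A pCDH-empty and 1 to 3 in DCIS.COM pCDH-empty, and BCL11B had 92 and 101 against 0 in both. MEF2C had 0 and 1 against 120 and 121, and BCL11A, a progenitor factor of triple-negative tumours, had 3 in each against 154 and 160.

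The basal list, the p63 targets and basal layer genes, went mostly against TP63 itself. Of 38 genes 34 were in the table, and 10 were called higher and 19 lower in DCIS.COM pCDH-empty, against 22.5% and 23.8% of all genes. The list's median log2 fold change was -1.10. In the pCDH-HOTAIR libraries 10 were higher and 18 lower, against 22.0% and 21.7% of all genes, and the list's median was -1.09. KRT6A, a stress and wound keratin, was 124-fold lower (-6.95 ± 0.09, adjusted p = 2.63e-09, limma), and KRT5 and KRT14, the keratins of the basal layer, were lower, at -2.61 ± 0.09 and -4.66 ± 0.16. LAMA3 and LAMB3, which encode laminin chains that anchor basal cells, were lower, at -3.73 and -1.87. Others went the other way: FGFR2 had 2 and 3 reads in MCF10A pCDH-empty and 826 and 1008 in DCIS.COM pCDH-empty, GPX2 had 2 and 3 against 1629 and 2199, and SPARC, a matrix protein, had 4 and 6 against 5269 and 6040. S100A2 and ITGB4 were higher by 2.38 and 2.15. Of 40 luminal genes 29 were in the table, with a median of 0.36. In DCIS.COM pCDH-empty 14 of them were called higher and 9 lower, against 22.5% and 23.8% of all genes. The simple keratins KRT8, KRT18 and KRT19 were higher in DCIS.COM by 2.35, 1.76 and 1.91, and EPCAM by 2.33, while KRT7, another simple keratin, was lower, at -0.60 ± 0.10 (adjusted p = 0.000699). PRLR, the prolactin receptor, had 4 and 8 reads in MCF10A pCDH-empty against 805 and 987, and PROM1 had 1 in each against 162 and 170. MUC1 and CD24, both luminal surface proteins, were lower, at -5.74 ± 0.19 and -3.64 ± 0.16 (adjusted p = 3.99e-07 for CD24). MUC1 had 563 and 685 reads in MCF10A pCDH-empty against only 8 and 11 in DCIS.COM pCDH-empty, so the size of its difference is approximate. KRT5, KRT14, LAMA3, LAMB3, S100A2, ITGB4, KRT7, KRT8, KRT18, KRT19 and EPCAM were named after their values were seen.

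HOTAIR was then compared with the empty vector in each line. None of the 10 factors was called in MCF10A, where limma called 3 genes (0.0218% of all genes), or in DCIS.COM, where it called 12 (0.0871%). In MCF10A 3 of the 10 factors had an unadjusted p below 0.05 (TP63, SOX9 and TFAP2C), against 7.28% of all genes (1003 genes). In DCIS.COM 4 did so (TP63, ELF3, EHF and RUNX1), against 17.5% of all genes (2409 genes). The limma-voom fit on the recovered reads also called 0 of 10 in each line. It put 3 and 6 of the 10 at an unadjusted p below 0.05, and 939 and 2804 of all 13771 genes. In MCF10A the 95% interval of 9 of the 10 factors lay within 1.5-fold in both directions, and TP63 was the exception. In DCIS.COM this held for the same 9.

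TP63 had the largest HOTAIR difference of the 10 in each line, and its libraries did not overlap. It was at 433 and 313 reads in MCF10A pCDH-empty against 341 and 332 in the shallower MCF10A pCDH-HOTAIR libraries, which gave 13.9 and 11.8 CPM against 17.6 and 16.6. In DCIS.COM it was at 19.4 and 24.0 CPM against 28.5 and 30.0. Both pCDH-HOTAIR libraries lay above both empty vector libraries in each line. A lack of overlap between the vectors, in either direction, was found for 47.2% of all genes in MCF10A and 49.2% in DCIS.COM. The log2 fold change was 0.42 ± 0.13 in MCF10A (95% interval 0.13 to 0.71, unadjusted p = 0.0111, adjusted p = 0.471, limma) and 0.44 ± 0.13 in DCIS.COM (0.15 to 0.73, unadjusted p = 0.00879, adjusted p = 0.222). Without DCIS.COM pCDH-empty 1, the library that stood apart, the DCIS.COM difference was 0.28 ± 0.11 (adjusted p = 0.269), and without DCIS.COM pCDH-empty 2 it was 0.59 ± 0.11 and was called (adjusted p = 0.00333), as were 1403 of all genes. The mean over both lines, a comparison added after these values were seen, was 0.43 ± 0.09 (adjusted p = 0.206, and 0.0944 to 0.290 over the other settings that keep all libraries). In that comparison 0 of the 10 factors were called by limma or by limma-voom, against 0.0363% of all genes by limma. At an unadjusted p below 0.05 there were 4 of the 10 by each, against 12.5% of all genes by limma (1728 genes) and 1720 genes by limma-voom.

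Of the other factors, SOX9 was 0.25 ± 0.07 higher with HOTAIR in MCF10A and 0.16 ± 0.07 higher in DCIS.COM, and its libraries did not overlap in either line (adjusted p = 0.445 and 0.292, limma). TFAP2C was at -0.33 ± 0.08 in MCF10A, also without overlap (unadjusted p = 0.00359, adjusted p = 0.323), and at -0.08 ± 0.08 in DCIS.COM. RUNX1 was at 0.05 ± 0.07 and 0.18 ± 0.07, ELF3 at -0.05 ± 0.08 and 0.20 ± 0.08, and KLF5 at -0.02 ± 0.09 and 0.19 ± 0.09. FOXA1 was at 0.02 ± 0.10 and -0.19 ± 0.10, TFAP2A at 0.04 ± 0.10 and 0.11 ± 0.10, and GATA3 at -0.08 ± 0.12 in both lines. In MCF10A 4 of the 10 factors had groups that did not overlap, TP63 and SOX9 higher and TFAP2C and EHF lower, where 47.2% of all genes did not overlap. In DCIS.COM 9 of 10 did not overlap, against 49.2% of all genes: TP63, SOX9, RUNX1, ELF3, EHF and KLF5 were higher, and FOXA1, TFAP2C and GATA3 were lower. Leaving out DCIS.COM pCDH-empty 1 lowered the DCIS.COM differences of EHF to 0.09, of KLF5 to 0.07 and of TFAP2A to 0.02.

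**Figure D4:**
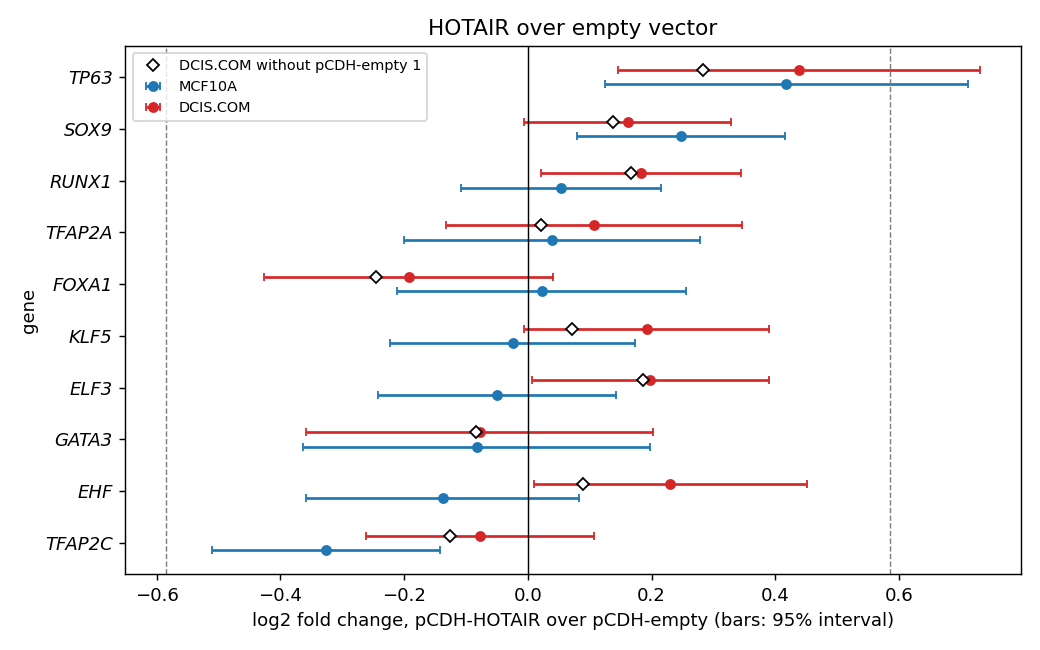
Points are log2 fold changes of pCDH-HOTAIR over pCDH-empty with 95% intervals from limma, blue for MCF10A and red for DCIS.COM; diamonds give DCIS.COM without the library pCDH-empty 1, and dashed lines mark a 1.5-fold change. TP63 lies highest in both lines, at 0.42 and 0.44 (0.28 for the diamond), and no factor was called.

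Among the listed genes around the 10 factors, none of the family relatives, cofactors, other mammary factors or luminal genes was called with HOTAIR in either line. In these lists of 18, 16, 40 and 29 genes, 4, 3, 7 and 6 had an unadjusted p below 0.05 in MCF10A by limma, against 7.28% of all genes. In DCIS.COM 6, 5, 12 and 6 did so, against 17.5% of all genes. The basal list had 0 of 34 called in MCF10A, against 0.0218% of all genes, with 10 at an unadjusted p below 0.05. In DCIS.COM 13 of its 34 genes had an unadjusted p below 0.05, and 2 were called, both higher, against 0.0871% of all genes called. These were COL17A1, the collagen XVII of hemidesmosomes, from 1695 and 1995 reads to 4128 and 4497 (0.94 ± 0.06, adjusted p = 0.00240), and CLCA2, a p53-family target of differentiated basal cells, from 183 in each to 512 and 513 (1.19 ± 0.09, adjusted p = 0.00255). In MCF10A, where both were more abundant, COL17A1 was at 0.03 ± 0.06 and CLCA2 at 0.41 ± 0.09, neither called. Both calls in DCIS.COM were lost in a fit of that line alone, which called 0 genes (adjusted p = 0.553 for each), and without either DCIS.COM pCDH-HOTAIR library (0.0700 to 0.0751).

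The difference of the HOTAIR effect between the lines was tested as an interaction. None of the 10 factors was called, against 0.0436% of all genes (6 genes), and 1 factor, EHF, had an unadjusted p below 0.05, by limma and by limma-voom alike, against 10.5% of all genes by limma (1452 genes) and 1468 genes by limma-voom. EHF was at -0.14 ± 0.10 in MCF10A and 0.23 ± 0.10 in DCIS.COM, a difference of 0.37 ± 0.13 (adjusted p = 0.440), and of 0.23 ± 0.07 without DCIS.COM pCDH-empty 1 (adjusted p = 0.217). The HOTAIR differences of TP63 in the 2 lines differed by 0.02, with a 95% interval of -0.39 to 0.43. COL17A1 was the only listed basal gene called (0.92 ± 0.09, adjusted p = 0.0208), and its call was lost with the replicate block (adjusted p = 0.0633), without the trend (0.132) and without any 1 of the 4 MCF10A or the 2 DCIS.COM pCDH-HOTAIR libraries (0.155 to 0.376).

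The gene whose profile lay closest to each factor was found as the smallest Euclidean distance between log2 CPM over the 8 libraries, each gene centred on its own mean; this is a description, and it carries no test. FZD7, a Wnt receptor, lay closest to SOX9 (distance 0.204), and rose from means of 1.59 and 1.70 in the MCF10A groups to 5.88 and 6.02 in DCIS.COM. ZNF692 lay closest to TP63 (0.233), at 3.62 and 3.89 in MCF10A without and with HOTAIR and 4.26 and 4.61 in DCIS.COM. RGS3 was closest to TFAP2C (0.183), ROCK2 to FOXA1 (0.235), METTL23 to GATA3 (0.158) and ZNF235 to ELF3 (0.127). HIBADH was closest to KLF5 (0.0957), PRR34-AS1 to TFAP2A (0.0908), NT5DC1 to EHF (0.0940) and SLC49A4 to RUNX1 (0.131). Among the 10 factors themselves, ELF3 and GATA3 (0.327) and FOXA1 and TFAP2C (0.430) lay closest together, although 102 other genes were closer to ELF3 than GATA3 was, and 108 were closer to FOXA1 than TFAP2C was.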

How the data were processed

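The authors aligned 76 nt paired-end ScriptSeq v2 reads of 8 libraries to hg19 with Rsubread, counted them on the UCSC knownGene annotation with featureCounts, annotated genes with org.Hs.eg.db and deposited log2 CPM values from edgeR, with a prior count; versions and use of strand are not given in the sources used here. All 13771 deposited genes had over 0.5 CPM in at least 2 libraries. A gene that was low in 1 line could therefore be in the table through the other line alone. Since the values rise in equal steps, whole reads were recovered (100% within 0.05 of a whole number), giving 19306864 to 34884841 reads per library. The table has no gene lengths, so CPM per kilobase and positions came from GENCODE release 44 lifted to GRCh37.

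The deposited log2 CPM values were fitted with limma 3.58.1 (R 4.3.3) as 4 group means over all 8 libraries, with a mean-variance trend and Benjamini-Hochberg adjustment over all genes. Genes were called at an adjusted p below 0.05 and at least 1.5-fold, without the fold for the interaction. The fit was tested on simulated data. The named genes were the 10 factors, HOTAIR, the cofactors, up to 4 genes of each list with the largest difference called in both comparisons of the lines, list genes called with HOTAIR, and each factor's nearest gene; where others are named, they were chosen after their values were seen. The factors and lists were chosen with earlier results of these data known.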

Additional observations from a re-analysis of the deposited data

Results flagged for a closer look

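EHF was set apart because every pCDH-HOTAIR library lay below both empty vector libraries in MCF10A and above both in DCIS.COM. In either direction, the vectors did not overlap for 47.2% of all genes in MCF10A and 49.2% in DCIS.COM. The share of all genes with opposite directions in the lines was not counted. The HOTAIR effect in DCIS.COM minus that in MCF10A was 0.367 on the log2 scale, with an unadjusted p of 0.0265 and an adjusted p of 0.440 in the limma interaction, so the difference did not pass the correction over all genes. In that test 10.5% of all genes had an unadjusted p below 0.05. Over the other settings that keep all libraries it was 0.34 to 0.42 (adjusted p 0.312 to 0.498), and with 1 library left out it was 0.23 to 0.51. The lowest value came without DCIS.COM pCDH-empty 1, the library that stood apart (adjusted p = 0.217). The highest came without DCIS.COM pCDH-empty 2, where it was called (adjusted p = 0.00118) among 4414 of all genes.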

How the results depend on the processing

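In the comparisons of the lines, the 10 factors kept their directions under every setting run, and their calls held in all but 3 values, which were of RUNX1 in the empty vector libraries and passed the fold threshold (0.61, 0.62 and 0.61). At a log2 fold change of at least 1.5, 2418 and 2357 genes and 4 and 2 factors were called with the empty vector and with HOTAIR. The counts of genes called for HOTAIR are less stable. In MCF10A 3 genes became 6 with a pseudocount of 1 CPM, 11 with GC correction, 5 with limma-voom, 1 in a fit of that line alone, 1 at a log2 fold change of at least 1.5, and 1 to 51 with 1 library left out. In DCIS.COM 12 became 49 with GC correction, 6 without the trend, 0 in a fit of that line alone, 1 at the higher fold, and 1 to 1403 with 1 library left out, with 0 to 1 factors called. The interaction's 6 became 10 with a pseudocount of 1 CPM, 21 with GC correction, 0 without the trend, and 0 to 4414 with 1 library left out, with 0 to 3 factors called (EHF, KLF5 and TFAP2C). Both highest counts came without DCIS.COM pCDH-empty 2; without DCIS.COM pCDH-empty 1 they were 60 and 89, and the cause was not tested. A lone library is assumed to vary like the other groups.

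With the replicate number as a block, 20 genes were called for HOTAIR in DCIS.COM and 0 for the interaction, and no factor changed its call. The differences between replicates 1 and 2 correlated at -0.016 to 0.066 between groups, so the numbers were taken as names that do not pair the libraries.

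Some small HOTAIR values changed sign. In MCF10A FOXA1 was -0.016 with GC correction and -0.0702 to 0.114 with 1 library left out, GATA3 -0.216 to 0.0502, ELF3 -0.161 to 0.0614, KLF5 -0.0627 to 0.0134 and TFAP2A -0.0529 to 0.131. In the interaction TP63 was -0.00381 with median centring, -0.015 with quantile normalization and -0.134 to 0.174 with 1 library left out. GATA3 was -0.000703 with a pseudocount of 1 CPM, -0.019 with median centring, -0.015 with quantile normalization and -0.128 to 0.138 with 1 library left out, and TFAP2A was -0.0238 to 0.160.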
